A study of Mus musculus with 4 samples.

Results

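Bhmt, Hpd and Bcat1 encode enzymes that break down or recycle amino acids, and they are described here across 4 arrays of mouse renal cortex RNA. They were chosen by the gene symbol that the platform's probe-to-gene table gives, as 3 of 9069 named genes on the array, each with 1 probe. The choice was made with results of these arrays in view. By difference with diabetes, Hpd was among the lowest genes in wild-type mice and Bcat1 among the lowest in mice without ICAM-1. Bhmt was among the highest over both genotypes. The differences of all 3 genes with diabetes are therefore given as a description, with no test.

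The animals were male C57BL/6J mice, either ICAM-1+/+ (WT) or ICAM-1-/- (KO, lacking an adhesion molecule of the vessel wall that leukocytes bind). At 8 weeks of age they received a single intraperitoneal dose of 200 mg/kg streptozotocin, a toxin of the insulin-producing beta cell (diabetic, DM), or citrate buffer alone (non-diabetic, ND). Kidneys were taken 12 weeks later, at 20 weeks of age, and total RNA of the renal cortex was labelled with biotin and hybridised to 1-colour CodeLink arrays. The groups are written ND-WT and DM-WT for ICAM-1+/+ mice, and ND-KO and DM-KO for ICAM-1-/- mice. Each had 5 mice and 1 array, and the labels do not say whether that array carried RNA of 1 mouse or of several. No value below has a biological replicate. The ICAM-1-/- mice lack the gene in every cell, and Icam1 itself was not analysed here, which leaves the labelled genotype unchecked. Where 4 values are given without array names, they run ND-WT then DM-WT, followed by ND-KO then DM-KO.

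Bhmt (betaine-homocysteine S-methyltransferase) moves a methyl group from betaine to homocysteine and so remakes methionine. It links betaine, which the kidney medulla also uses as an osmolyte, to the methyl cycle of methionine, S-adenosylmethionine and homocysteine. Hpd (4-hydroxyphenylpyruvate dioxygenase) turns the keto acid of tyrosine into homogentisate, the step that commits tyrosine to breakdown, and is abundant in liver and proximal tubule. Bcat1 is the cytosolic branched-chain aminotransferase, which moves the amino group of leucine, isoleucine or valine to 2-oxoglutarate. Its mitochondrial counterpart is Bcat2.

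The regions just before the starts of the 3 genes are shown to give the sequence context in which each transcript begins. For Bcat1 the RefSeq table used holds 2 starts, and both are shown. Each is the 250 bases upstream of the RefSeq start (GRCm38.p6), all on the minus strand, printed 5′ to 3′ with the last base next to the start. Capitals mark matches to 4 short motifs searched on both strands, TATAAA (the TATA box), AGGTCA (the nuclear receptor half-site), TGTTCT (the steroid receptor half-site) and GTTAAT (the HNF1 half-site).
Bhmt, chr13:93637759-93638008: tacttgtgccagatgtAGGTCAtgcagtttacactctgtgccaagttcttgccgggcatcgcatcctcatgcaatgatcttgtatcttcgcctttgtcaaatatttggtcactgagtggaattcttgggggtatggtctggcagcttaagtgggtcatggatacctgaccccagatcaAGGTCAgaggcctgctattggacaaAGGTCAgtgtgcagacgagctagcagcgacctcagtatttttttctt
Hpd, chr5:123182724-123182973: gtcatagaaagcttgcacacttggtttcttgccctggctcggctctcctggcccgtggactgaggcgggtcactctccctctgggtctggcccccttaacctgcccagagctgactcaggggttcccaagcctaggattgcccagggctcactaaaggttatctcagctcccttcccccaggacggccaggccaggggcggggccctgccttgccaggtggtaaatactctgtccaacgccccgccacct
Bcat1 first start, chr6:145076158-145076407: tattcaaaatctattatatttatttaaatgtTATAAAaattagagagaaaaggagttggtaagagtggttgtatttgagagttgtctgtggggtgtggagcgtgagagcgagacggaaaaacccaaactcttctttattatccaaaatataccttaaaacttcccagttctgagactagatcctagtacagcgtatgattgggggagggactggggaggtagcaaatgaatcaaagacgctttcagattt
Bcat1 second start, chr6:145048813-145049062: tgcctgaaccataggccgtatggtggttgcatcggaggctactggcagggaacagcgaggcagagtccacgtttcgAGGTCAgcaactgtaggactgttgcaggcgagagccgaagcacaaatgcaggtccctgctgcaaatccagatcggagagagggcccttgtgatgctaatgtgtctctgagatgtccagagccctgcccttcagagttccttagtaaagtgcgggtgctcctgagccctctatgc
The Bhmt window held 3 copies of AGGTCA, 234 to 229, 72 to 67 and 47 to 42 bases upstream of the start. Of 32851 annotated starts, 14.0% had AGGTCA at least once in a window of this length and 43 (0.131%) had it 3 times or more. The first Bcat1 window held TATAAA 219 to 214 bases upstream, a motif present in 12.4% of windows, and the second held AGGTCA 174 to 169 bases upstream and no TATAAA. The Hpd window held no match to any of the 4 motifs; TGTTCT occurred in 16.1% of all windows and GTTAAT in 6.43%. The windows differed in base composition, with 48% G and C for Bhmt, 62.8% for Hpd and 37.6% and 56.4% for the first and second Bcat1 start, against a median of 52.4%. These matches are letters in a window, and nothing on the arrays measured binding there.

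The arrays were alike in the share of usable probes, 62.8% to 66.2% of 10032 gene probes, and in median net intensity, 37.7 to 46.3, with DM-WT the lowest in both. Net intensity is the mean of a spot's pixels minus the median of its local background, on the scanner's linear scale. It is not scaled between arrays. Relative to ND-WT, the bacterial control RNAs read 0.583 on DM-WT and 1.2 to 1.26 on the KO arrays. Of 300 negative control spots on each array, 95% were below a net intensity of 9.49 on ND-WT and 7.15 to 8.36 on the others. Columns 44 to 48 of the upper block were set apart as a region of suspected signal loss on DM-WT. The loss was not quantified here, and the region is called the signal-loss region below. No spot of Bhmt, Hpd or Bcat1 lay in it. Spots printed around the 3 probes were within 0.09 log2 units of the mean over the arrays. Levels below are log2 intensities after background correction and quantile normalization, and a difference is between 2 such levels. The only repeat measure is the bacterial probes, printed 6 times per array. Over 56 sets of spots with net intensities of 10 to 1000, their median coefficient of variation was 8.32%. Taken as log2 of net intensity plus 50, their spread gave a difference between arrays a standard deviation (SD) of 0.109 log2 units. This spread covers spotting within an array and neither the array nor the mice.

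Bhmt was higher on both diabetic arrays than on either non-diabetic array. Its net intensity was 17.9 without and 62.8 with diabetes in WT, and 21.3 and 77.0 in KO, with standard errors over the pixels of a spot of 1.92, 3.27, 1.68 and 4.43. The diabetic and non-diabetic values did not overlap. Bhmt was chosen on this difference and the share of all genes for which this holds was not computed, so nothing is drawn from it. The non-diabetic spots were dim, at 1.88 times the 95th percentile of the negative controls on ND-WT and 2.67 times on ND-KO, against 7.52 and 10.8 times on DM-WT and DM-KO. All 4 spots were marked usable.

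**Figure D1:**
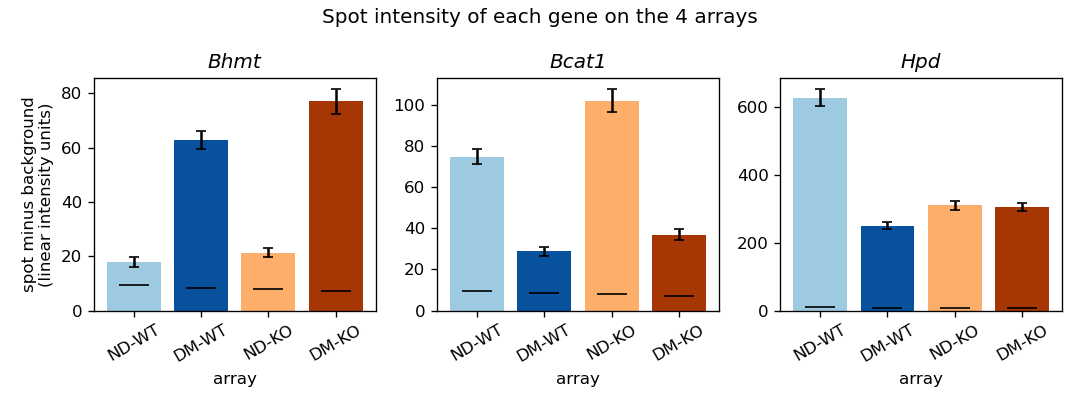
Net intensity (linear scanner units, bars from 0, 1 scale per gene) of the single Bhmt, Hpd and Bcat1 probe on each of the 4 arrays. Error bars are the standard error over the pixels of 1 spot and the horizontal dash is the 95th percentile of that array's negative controls. Bhmt is higher on DM-WT (62.8) and DM-KO (77.0), Hpd stands at 628 on ND-WT and 251 to 311 elsewhere, and Bcat1 is lower on DM-WT (28.9) and DM-KO (36.8).

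On the log2 scale the Bhmt levels were 6.08 and 6.93 in WT and 6.13 and 6.92 in KO. DM-WT was 0.85 above ND-WT, or 1.8-fold, and DM-KO 0.79 above ND-KO, or 1.73-fold. The background correction adds a constant of 50 to every spot, which shrinks the fold of a dim probe. In net intensity, not scaled between arrays, the folds were 3.51 in WT and 3.62 in KO. In the authors' value table, which is scaled, they were 4.05 and 3.47. At least 1.5-fold higher levels in both pairs were found for 0.372% of 5914 genes measured on all 4 arrays, and that contrast chose Bhmt. Its diabetes coefficient over both genotypes was 0.82, with Calb1, the calcium-binding protein of the distal tubule, just above it in 17th place of 5442 and Tubb2b just below in 19th.

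Genotype did not enter the choice of Bhmt, so it could be tested. KO minus WT over both treatments was 0.02 (standard error, SE, 0.063) with an adjusted p of 0.922 in limma's moderated test, fitted across all genes on the 4 arrays with 1 residual degree of freedom. That test called 3 of 6511 genes for genotype (0.0461%), and 594 (9.12%) had an unadjusted p under 0.05. By pair, ND-KO was 0.05 above ND-WT and DM-KO was within 0.01 of DM-WT. The difference with diabetes in KO was 0.06 smaller than in WT, and 4 arrays allow no test of that.

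The other measured genes of the methyl cycle and of betaine breakdown did not show the pattern of Bhmt. Bhmt2, the paralog that neighbours Bhmt in the genome and uses S-methylmethionine, had net intensities of 54.7, 47.7, 49.1 and 53.6 and differences with diabetes of 0.02 in WT and 0.04 in KO. Dmgdh, which demethylates the dimethylglycine that Bhmt makes and lies next to Bhmt2, differed by -0.15 and 0.05. Ahcy, which releases homocysteine from S-adenosylhomocysteine, differed by -0.37 in WT and -0.12 in KO. Gnmt, which methylates glycine, differed by -0.45 and -0.10.

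Homocysteine can also leave the cycle towards cysteine. Cbs, the first enzyme of that route, differed by -0.56 in WT and -0.25 in KO, and Cth, the second, by -0.16 and 0.17. Aldh7a1, which makes betaine from its aldehyde, differed by 0.10 and -0.02. Mat1a was not above background on any array. Of the 7 measured genes of this list other than Bhmt, 0 were at least 1.5-fold different in either direction in either pair, and the median difference was -0.16 in WT and -0.02 in KO against 0.00 and -0.01 over all genes. Mtr, the other enzyme that remakes methionine from homocysteine, was not analysed here, nor were Chdh and Sardh.

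**Figure D2:**
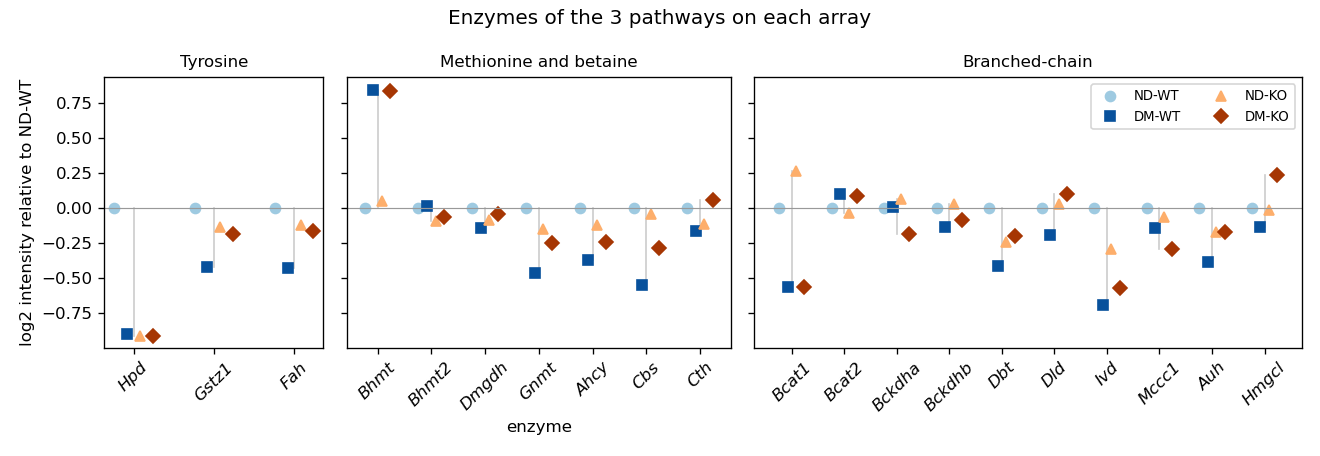
Log2 level on each of the 4 arrays relative to ND-WT (0 on the linear y axis) for genes of the tyrosine, methionine and branched-chain pathways (x axis), 1 point per array. Both diabetic points lie above the others for Bhmt (differences with diabetes of 0.85 and 0.79) and below them for Bcat1 (-0.56 and -0.82). Bhmt2 shows no such separation and Bcat2 a small one upward (0.10 and 0.12). For Hpd 3 arrays lie together below ND-WT.

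Bcat1 was lower on both diabetic arrays. Its net intensity was 74.7 without and 28.9 with diabetes in WT, and 102.0 and 36.8 in KO, with pixel standard errors of 3.66, 2.15, 5.42 and 2.68. Every diabetic value lay below every non-diabetic value. The KO pair chose Bcat1 and the share of all genes for which this holds was not computed, so nothing is drawn from it. All spots were usable and 3.46 to 12.8 times the 95th percentile of the negative controls.

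The log2 levels of Bcat1 were 6.94 and 6.38 in WT and 7.21 and 6.38 in KO. DM-WT was 0.56 below ND-WT, a 1.47-fold lower level, and DM-KO 0.82 below ND-KO, a 1.77-fold lower level. In net intensity the levels were 2.58-fold and 2.76-fold lower. At least 1.5-fold lower levels on DM-KO than on ND-KO were found for 0.505% of 6339 genes, the contrast that chose Bcat1, and the WT pair missed that fold. In the KO pair Cpe stood just above it in 9th place of 5833 with -0.85, and the heat shock gene Hspa1a just below with -0.81.

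On the 2 diabetic arrays the Bcat1 levels were within 0.01 of each other, while ND-KO was 0.27 above ND-WT. The KO arrays entered the choice of Bcat1, so its genotype coefficient of 0.14 (SE 0.089) is given with no test. The difference with diabetes was 0.26 further below 0 in KO than in WT, a value that cannot be tested on 4 arrays.

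Bcat2 did not share this pattern: its diabetic values also lay apart from its non-diabetic ones, but above them and by little. Its net intensities were 36.9, 37.7, 37.2 and 45.7, and its differences with diabetes 0.10 in WT and 0.12 in KO. The next enzyme, the branched-chain keto acid dehydrogenase, was measured through 4 subunits and its kinase. Bckdha and Bckdhb, the subunits of its decarboxylase, differed by 0.01 and -0.13 in WT and by -0.25 and -0.11 in KO. Dbt, the acyltransferase core, differed by -0.41 and 0.04, and Dld, the subunit shared with other dehydrogenases, by -0.19 and 0.07. Bckdk, which inhibits the complex by phosphorylation, differed by -0.19 and -0.01.

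Further down the leucine branch, Ivd (isovaleryl-CoA dehydrogenase) had log2 levels of 9.25, 8.56, 8.96 and 8.68, with differences of -0.69 in WT and -0.29 in KO. Mccc1, the carboxylase subunit that follows, differed by -0.14 and -0.23, and Auh, a later step, by -0.38 and 0.00. Over the 20 other measured genes of branched-chain amino acid breakdown, 2 were at least 1.5-fold lower in WT, Ivd and Acadsb, where the share over all genes was 0.859%. The Acadsb spot (-1.62 in WT, -0.08 in KO) lies in the region of suspected DM-WT signal loss. Pccb of the same list, also in that region, differed by -0.16 in WT and 0.02 in KO. Values below 0 were found for 17 of 20 genes in WT and 10 of 20 in KO, and over all genes for 49.9% and 52.1%.

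Hpd was high on 1 array. Its net intensity was 628 without and 251 with diabetes in WT, and 311 and 307 in KO, with pixel standard errors of 24.9, 9.93, 13.1 and 11.9. Unscaled, the ND-WT value was 2.02 to 2.5 times the others, which lay close together. In the authors' scaled value table it was 2.17 times DM-WT and 2.07 times ND-KO. All 4 spots were bright, 30.0 to 66.1 times the 95th percentile of the negative controls.

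The log2 level of Hpd was 9.33 on ND-WT, against 8.43 for DM-WT and 8.42 for each KO array. DM-WT was 0.91 below ND-WT, a 1.87-fold lower level, while DM-KO and ND-KO did not differ (0.00). At least 1.5-fold lower levels on DM-WT were found for 0.859% of 6054 genes, the contrast that chose Hpd. ND-KO was likewise 0.91 below ND-WT, where 0.431% of 6258 genes were at least 1.5-fold lower, and DM-KO 0.01 below DM-WT. The difference with diabetes in KO minus that in WT was 0.91, a value that cannot be tested on 4 arrays. All of these except the 2 near 0 rest on the single ND-WT array. Hpd stood 10th from the lowest of 5570 genes in the WT pair, between Ces1g, a carboxylesterase, at -0.92 and Cyp2e1 at -0.90. The Cyp2e1 value rests on a spot in the region of suspected DM-WT signal loss.

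A level on ND-WT at least 1.5-fold above each other array was found for 3 of 5914 genes (0.0507%). They were Hpd, Ugt2b37, a UDP-glucuronosyltransferase, and G6pc, the glucose-6-phosphatase that lets kidney and liver release glucose. The genotype coefficient of Hpd was -0.46 (SE 0.23). It is given with no test, because the ND-WT array that chose Hpd also sets this coefficient.

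Gstz1 and Fah, later steps of the same route, were lower on DM-WT than on ND-WT by less than 1.5-fold. Gstz1, which isomerises maleylacetoacetate after Hpd, differed by -0.42 in WT and -0.05 in KO, and Fah, the last enzyme of the route, by -0.43 and -0.04. For these 2 genes ND-KO was only 0.12 below ND-WT, so DM-WT was the low array rather than ND-WT the high one.

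Got1, an aminotransferase that also acts on tyrosine, differed by 0.21 and 0.23. Mif, which can tautomerise phenylpyruvate, differed by 0.43 and 0.27. The median over the 7 other measured genes of the list was -0.01 in WT and -0.04 in KO, and 0 of 7 were 1.5-fold different. Gch1 was not above background on any array, and Tat and Hgd, the steps just before and after Hpd, were not analysed here.

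**Figure D3:**
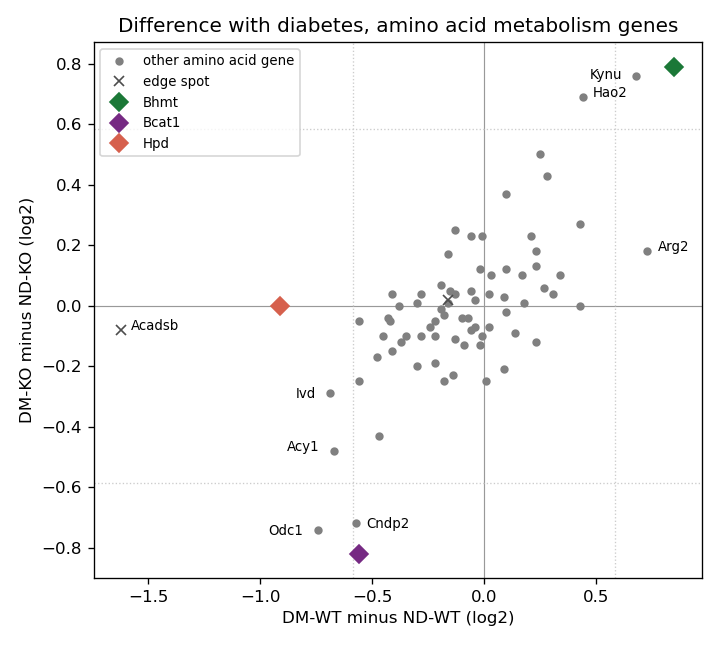
Difference with diabetes in WT (x axis) against that in KO (y axis), both in log2 units on linear axes, for Bhmt, Hpd, Bcat1 and the other measured amino acid genes, 1 array per group. Bhmt lies high in both (0.85, 0.79), Bcat1 low in both (-0.56, -0.82) and Hpd low in WT only on these arrays (-0.91, 0.00). Crosses (edge spot) mark the region of suspected DM-WT signal loss and dotted lines a 1.5-fold difference.

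Over all 8 lists of amino acid metabolism, 75 genes other than Bhmt, Hpd and Bcat1 were measured on all 4 arrays. In WT, 2 were at least 1.5-fold higher with diabetes, Kynu and Arg2, and 4 lower, Odc1, Ivd, Acy1 and Acadsb. Over all genes 1.75% were higher and 0.859% lower. In KO, 2 were higher, Kynu and Hao2, and 2 lower, Odc1 and Cndp2, where the shares over all genes were 0.536% and 0.505%. The median over the lists was -0.10 in WT and -0.02 in KO.

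Only Kynu was at least 1.5-fold higher in both pairs, among these 75 genes. Kynu (kynureninase, of tryptophan breakdown) had net intensities of 30.9, 68.8, 35.8 and 97.7 and differences of 0.68 and 0.76. Odc1 (ornithine decarboxylase, the entry to polyamines) was the only one at least 1.5-fold lower in both, with net intensities of 1150, 513, 1070 and 607 and a difference of -0.74 in each pair. At least 1.5-fold lower levels in both pairs were found for 0.186% of 5914 genes.

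In limma's test of diabetes over both genotypes, 0 of the 75 genes had an adjusted p under 0.05, and 8 higher and 13 lower had an unadjusted p under 0.05. Over all 6511 genes, 1 was called (0.0154%) and 832 (12.8%) had an unadjusted p under 0.05. With the spots of the signal-loss region left out on all arrays, limma called 95 of 6218 genes (1.53%), and among 73 amino acid genes 2 that rose and 4 that fell. Kynu rose by 0.71 (SE 0.069, adjusted p 0.0162 in limma) and Hao2, a hydroxyacid oxidase of the peroxisome, by 0.57 (SE 0.087, adjusted p 0.0453 in limma). Odc1 fell by 0.75 (SE 0.067) and Cndp2, a dipeptidase, by 0.65 (SE 0.072), with adjusted p of 0.0151 and 0.023 in limma. Acy1, an aminoacylase, fell by 0.58 (SE 0.079) and Aadat, an aminotransferase of kynurenine and 2-aminoadipate, by 0.45 (SE 0.068), with adjusted p of 0.0345 and 0.0445 in limma. All of these but Hao2 were also called under median scaling, where limma called 1.32% of all genes. In every other alternative fitted with limma, none of the amino acid genes other than Bhmt, Hpd and Bcat1 was called for diabetes. For genotype, 0 of the 75 genes were called by limma with all spots.

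The lists differed among themselves. The glutamine, glutamate, aspartate and alanine list had a median of 0.22 in WT and -0.02 in KO, with Asns (asparagine synthetase) at 0.43 and 0.00, Glud1 (glutamate dehydrogenase) at 0.31 and 0.04 and Ggt1, the brush border gamma-glutamyltransferase, at -0.41 and -0.15. The arginine, proline and urea cycle list had -0.13 and 0.04, with Arg2, the mitochondrial arginase, at 0.73 and 0.18 and Gatm, the first enzyme of creatine synthesis, at 0.25 and 0.50. Gamt, the enzyme after Gatm, lay the other way at -0.30 and -0.20. The glycine, serine and threonine list had -0.08 and -0.01, with Phgdh, the entry to serine synthesis, at 0.34 and 0.10, the hydroxymethyltransferase Shmt1 at 0.23 and 0.18 and Dao, the D-amino acid oxidase, at -0.24 and -0.07. The tryptophan and lysine list had -0.06 and -0.10, with the decarboxylase Ddc at 0.28 and 0.43 and Haao, which follows Kynu, at -0.48 and -0.17. The histidine and cysteine list had -0.18 and -0.10, with the cysteine dioxygenase Cdo1 at -0.18 and -0.25, and Ethe1 and Tst, of sulfide oxidation, at 0.10 and -0.28 in WT and 0.37 and -0.10 in KO. Arg1, Otc, Tdo2 and Agxt, enzymes known from liver, were not above background on any array.

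The genes with profiles most like those of Bhmt, Hpd and Bcat1 were sought among 5442 named genes measured on all 4 arrays. Each profile was centred on its own mean and compared by the root mean square distance of the 4 values. The nearest to Bhmt were Zmat3 (distance 0.0628 log2 units), Kynu (0.0715), Plk2 (0.0934), Ltc4s (0.0937) and Gas6 (0.104), of which Kynu is an amino acid gene. Their differences with diabetes were 0.61 to 0.99 in WT and 0.55 to 1.02 in KO. Among the nearest to Hpd were Ugt2b37 (0.0406), G6pc (0.0742), Inmt (0.154) and Slc15a2 (0.178). The nearest to Bcat1 were Cndp2 (0.0489), Tnmd (0.0656), Rnf24 (0.0658), Mpv17l (0.08) and Pudp (0.0823). With 4 arrays such likeness is a description of these arrays.

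The tissue was checked against markers of cortical cell types. All 14 proximal tubule markers on the array, among them Slc34a1, Lrp2 and Miox, were above background. Their summed net intensity, not scaled between arrays, was 36900 without and 26800 with diabetes in WT, and 33800 and 27600 in KO, and their differences with diabetes had a median of -0.14 in both pairs, with values below 0 for 10 of 14 and 12 of 14. In cortex RNA, fewer proximal tubule cells and less RNA of a gene per cell cannot be told apart. The part of this in the Hpd and Bcat1 differences was not tested.

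Other markers also moved with diabetes. Androgen-dependent kidney genes, which include Odc1, had sums of 35200, 16600, 33000 and 21400. Values lay below 0 for 10 of 10 genes in WT and 9 of 10 in KO, with medians of -0.73 and -0.61. Cyp2e1 and Adh1 of this list have spots in the region of suspected DM-WT signal loss. Their net intensities, included in the sums, were 9860 and 4280 on ND-WT and 4220 and 2160 on DM-WT. Macrophage markers had sums of 672, 1150, 729 and 1040 over 7 genes, 1 of them not above background on any array, and median differences with diabetes of 0.84 in WT and 0.36 in KO. Thick limb and distal tubule markers summed to 8920, 10100, 9070 and 9610, with medians of 0.29 and 0.24. Collecting duct markers summed to 2320, 2110, 1870 and 2710, with medians of 0.09 and 0.15, and endothelial markers to 1870, 1670, 1980 and 1900, with medians of 0.07 and -0.02.

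Of the podocyte markers, Nphs1 and Podxl were not above background on any array, and the sums were 133 to 190. Hepatocyte markers, listed because Bhmt and Hpd are abundant in liver, summed to 2370, 1660, 1900 and 1630, with 3 of 10 (Apoa1, Cyp2c29 and Mup1) not above background on any array. Most of that sum was Ttr (2040, 1150, 1500 and 1160), also made in other tissues, which differed by -0.49 in WT and -0.30 in KO. Among the other hepatocyte markers, Apoc3 differed by 1.02 in WT and 0.36 in KO, Apoa2 by 0.61 and 0.17 and Trf by 0.44 and 0.23. Fga differed by 0.37 and -0.08, and Ahsg by -0.02 and -0.07. Values were below 0 for 2 of 6 measured hepatocyte markers in WT and 4 of 7 in KO. The median of the list was 0.41 in WT and 0.00 in KO. Adipocyte markers summed to 2630, 2070, 3360 and 1890, highest on ND-KO, as Bcat1 was. Most of that sum was Lpl (1810, 1030, 2360 and 994) and Fabp4 (796, 1020, 851 and 874), and Fabp4 was highest on DM-WT. Adipoq (12.4, 6.57, 47.9 and 5.59) and Cfd (10.1, 11.1, 80.6 and 8.4), each usable on 1 array, were highest on ND-KO, as Lpl was. Over the 2 adipocyte markers measured in each pair, the median difference with diabetes was 0.08 in WT and -0.56 in KO. The part of these markers in the values of Bhmt, Hpd and Bcat1 was not tested.

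The sizes of the Bhmt and Bcat1 differences depended on how dim spots were treated. For Hpd in WT, -0.91 as reported, the size moved more with median scaling (-1.08) than with an offset of 16 (-0.98). No difference with diabetes of at least 0.5 on the log2 scale changed direction. In the authors' value table the Bhmt fold was 4.05 in WT and 3.47 in KO, Bcat1 was 2.24-fold and 2.88-fold lower, and Hpd was 2.17-fold lower in WT. Under median scaling all genes shifted slightly in the WT pair (median -0.08), and relative to that shift Bhmt was at 0.91, Hpd at -1.0 and Bcat1 at -0.49. Of the genes at least 1.5-fold different in the WT pair, 67.1% were higher under quantile normalization and 35.9% under median scaling, and in the KO pair 51.5% and 43.5%.

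**Figure D4:**
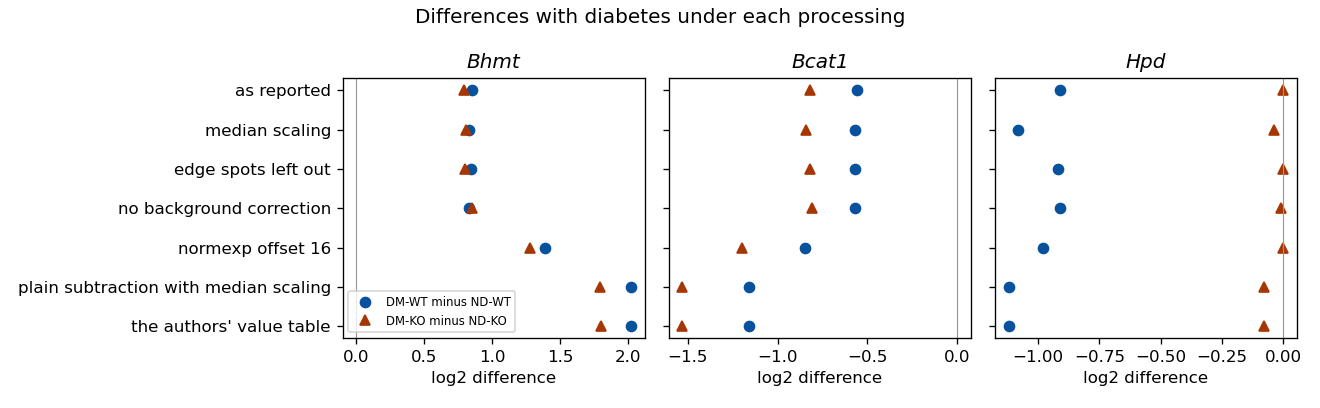
Difference with diabetes (log2 units, linear axis) of Bhmt, Hpd and Bcat1 in WT and KO under the processing as reported and 6 alternatives, 1 array per group. Bhmt ranges from 0.83 to 2.02 in WT and Bcat1 from -1.16 to -0.56, each on 1 side of 0, while Hpd in KO stays between -0.08 and 0.00.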

How the data were processed

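Per the labels' protocols, biotin-labelled cRNA of renal cortex was hybridised to CodeLink arrays, 1 per group. The deposited scanner files hold linear intensity, for each spot and for the background around it, before any subtraction or scaling, per the file headers. The authors' deposited value table holds intensity too: each column equalled the net intensity divided by 1 constant per array (100% of compared probes within 0.1%), with medians of 0.926 to 0.93, genes were not centred, and the rule for the constant stays unknown. Gene names come from the platform table.

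From the deposited intensities, log2 values were computed in R 4.3.3 with limma 3.58.1: normexp background correction (offset 50), quantile normalization, and the mean of a gene's probes. A probe with a missing value on any array was dropped where another probe of the gene was complete. Probes marked not usable but without a missing value stayed in the mean. Genes usable on at least 2 arrays were tested with lmFit and eBayes (genotype and diabetes as terms), with Benjamini-Hochberg adjustment over all genes and a threshold of 0.05. Folds were called at 1.5. The code was tested on simulated data. With 4 arrays, their number limits the precision.

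Bhmt, Hpd and Bcat1, the gene lists and the alternatives were chosen with earlier results of these data known. Named genes were those at least 1.5-fold different one way in both pairs, up to 4 per list with the largest mean difference, the neighbouring pathway steps, and the 5 nearest profiles; Glud1, Dld, Cth and Aldh7a1, and the genes not above background, were added after their values were seen. Alternatives were another offset, no or plain background correction, median scaling, the value table, other filters, the signal-loss spots left out, no second term, an intensity trend and other folds. Sequences are from RefSeq (GRCm38.p6), which held all 3 genes. Some genes that the rules name are not reported here.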

Additional observations from a re-analysis of the deposited data

How the results depend on the processing

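Bhmt, Hpd and Bcat1 kept the direction of each difference with diabetes that was at least 0.5 on the log2 scale under all 8 alternatives run on them. With an offset of 16, Bhmt stood at 1.39 (WT) and 1.28 (KO) and Bcat1 at -0.85 and -1.20. Under plain subtraction Bhmt stood at 2.02 and 1.79, Hpd in WT at -1.12 and Bcat1 at -1.16 and -1.53, and in the authors' value table at 2.02 and 1.80, -1.12, and -1.16 and -1.53. Median scaling put Hpd in WT at -1.08. The genotype coefficient of Bhmt, 0.02 as reported (SE 0.063), was -0.01 without background correction (adjusted p 0.961 in limma, with 0.788 to 0.996 over its alternatives). Both values lie within that SE of 0. Genes called by limma for genotype, 3 as reported, numbered 1 with an offset of 16, 0 under plain subtraction and in the value table, 15 under median scaling, 1 with genes usable on all 4 arrays and 12 without the signal-loss spots. For diabetes, 1 as reported, limma called 86 under median scaling, 95 without those spots, and 0 with an offset of 16, no background correction, plain subtraction, the value table, the genotype term left out or an intensity trend. Amino acid genes at least 1.5-fold higher in WT (2 as reported) numbered 4 with an offset of 16 and 5 under plain subtraction and in the value table, and those lower (4 as reported) 11, 10 and, under median scaling, 16. At a lower threshold, a log2 difference of 0.32, 6 were higher and 17 lower in WT and 5 and 4 in KO, and at 2-fold 0 and 1 in WT and 0 and 0 in KO. No paired analysis was possible because each group has 1 array and the labels carry no replicate numbers; leaving out an array would leave no residual degree of freedom. The dim Bhmt spots on the non-diabetic arrays limit the size of its fold.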
